A study of Homo sapiens with 9 samples.

Results

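Cyclin D1 and the other genes that decide whether a cell leaves G1 were examined in A549 cells, an established human lung adenocarcinoma line, after Cyclin K silencing. Rows were taken by gene symbol, and all 10 genes were found among 31080 reference genes: the D-type cyclins CCND1, CCND2 and CCND3, the E-type cyclins CCNE1 and CCNE2, the kinases CDK2, CDK4 and CDK6, the retinoblastoma gene RB1, and CDKN1B, which encodes the inhibitor p27. RNA-seq was performed on 9 libraries: 3 with a scrambled control siRNA (labelled siCtrl), 3 with siCyclin K#1 and 3 with siCyclin K#2, each 48 h after transfection. Both siCyclin K oligonucleotides target CCNK, the gene for Cyclin K, the partner of the transcriptional kinases CDK12 and CDK13. The silencing was transient, in 1 cell line and at 1 time, and the comparisons of the 2 siRNAs with control share the scrambled libraries. The series text calls the samples of a group independent, but no label ties them to separate cultures, so the p-values measure the spread between these libraries, which may be technical. No batch was named in the labels.

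In G1, growth signals raise the D-type cyclins, which bind CDK4 or CDK6 and begin to phosphorylate the RB1 protein. The RB1 protein then releases E2F transcription factors, which switch on CCNE1, CCNE2 and the genes of DNA replication. Cyclin E with CDK2 completes the step, and p27 restrains cyclin E and CDK2 and also binds the cyclin D complexes. CCND1 is frequently overexpressed in lung cancer and is a classical target of β-catenin. The study used these same libraries to take up CCND1, so its fall here is not independent evidence of its direction.

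Expression is given as FPKM, fragments per kilobase of transcript and depth of library, which is corrected for length, so levels of different genes can be set side by side. Between 31333510 and 33767857 reads per library were recovered from the deposited values. Differences are on the scale of log2(FPKM + 0.1), with an adjusted p below 0.05 over 21048 tested genes as the threshold. The siRNA target was checked first. CCNK was at 6.90, 7.06 and 7.10 FPKM in the scrambled libraries, at 0.891, 0.816 and 0.720 with siCyclin K#1 and at 0.809, 0.920 and 0.802 with siCyclin K#2. All 6 siCyclin K libraries lay below control, and the 2 siRNAs differed by -0.06 (95% interval -0.28 to 0.17, adjusted p = 0.726).

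Of the 10 genes, 9 passed the filter on low values, and CCND2 did not. With siCyclin K#1, 8 of 9 tested genes changed, 7 lower and CDK6 higher, where 44.8% of all tested genes changed (26.8% higher and 18.1% lower). Among genes with a mean of at least 1 FPKM, as all 9 are, 64.3% changed and 27.8% were lower. With siCyclin K#2, 7 of 9 changed, 6 lower and CCND3 higher, against 34.9% of all tested genes (19.8% higher and 15.2% lower) and 53.5% of those with a mean of at least 1 FPKM (22.4% lower). Without siCyclin K#2 replicate 3, the count for siCyclin K#2 was 4. Under the rule in the methods of the study, a fold change over 3 with an unadjusted p below 0.01, 2 genes were called with siCyclin K#1, CCND1 and CCNE2 (4.67% of all tested genes), and 1 with siCyclin K#2, CCND1 (1.94%). With both siRNAs taken as 1 group, 6 of 9 changed, where 28.6% of all tested genes did, and 3 of 9 without scrambled replicate 1. Averaging the siRNAs in the 3-group fit called 8 of 9, all but CCNE1, with CCNE2 (-1.21, adjusted p = 3.0e-05) and CDK6 (0.18, adjusted p = 0.00678) added.

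**Figure D1:**
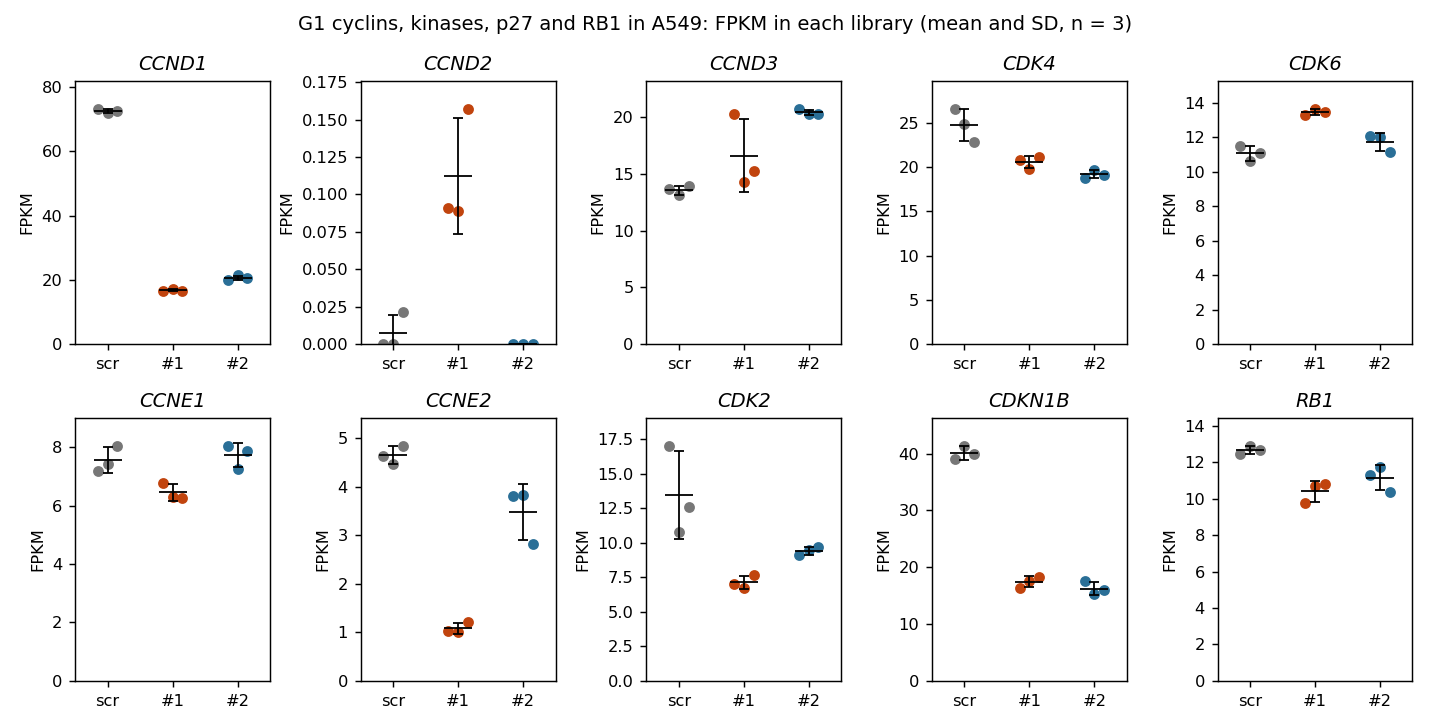
FPKM of the 10 genes in each library (vertical axes from 0, each gene on its own scale) for scrambled siRNA (scr), siCyclin K#1 and siCyclin K#2; points are libraries, and the horizontal mark and bars give the mean and SD of 3. The 6 siCyclin K libraries lie below all scrambled libraries for CCND1, CDK4, CCNE2, CDK2, CDKN1B and RB1, and above them for CCND3.

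The D-type cyclins start the G1 cascade, and CCND1 showed the largest fall of the 9 tested genes with either siRNA. CCND1 (ENSG00000110092; GRCh38 chr11:69641087-69654474, plus strand) was at 73.1, 72.0 and 72.6 FPKM in the scrambled libraries, at 16.6, 17.1 and 16.5 with siCyclin K#1, and at 20.04, 21.4 and 20.6 with siCyclin K#2. The libraries of a group differed little from each other, and the 3 groups did not overlap. The means were 72.6 ± 0.546, 16.7 ± 0.329 and 20.7 ± 0.685 FPKM (SD, n = 3 each), so that 23.1% and 28.5% of the control level remained. The log2 difference was -2.11 (SE 0.034, adjusted p = 5.3e-09) with siCyclin K#1 and -1.81 (SE 0.034, adjusted p = 2.1e-08) with siCyclin K#2. A loss of CCND1 RNA per cell and fewer cells with a high level cannot be told apart in bulk RNA. CCND1 came from a locus that StringTie had assembled itself, and its values did not resolve to whole reads at the reference length in any library (0 of 9). CCNE2, CDK6 and RB1 resolved in 2 of 9 libraries each, and the siRNA target CCNK in 1 of 9. The levels of CCND1 and of these genes, also in the shares and the order given here, rest on a length that may differ from the reference. The 3′ end of CCND1 overlaps ORAOV1 on the opposite strand, and whether counting used the strand is not given in the sources used here.

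CCND3, the other D-type cyclin at a sizeable level, did not fall. CCND3 (ENSG00000112576; chr6:41934933-42050357, minus strand) was at 13.7, 13.2 and 13.9 FPKM in the scrambled libraries, at 20.3, 14.3 and 15.2 with siCyclin K#1, and at 20.7, 20.3 and 20.3 with siCyclin K#2. All 6 siCyclin K libraries lay above control, and siCyclin K#1 replicate 1 stood with the siCyclin K#2 libraries rather than with its own group. The increase was 0.59 with siCyclin K#2 (95% interval 0.33 to 0.84, adjusted p = 0.00341). The difference of 0.27 with siCyclin K#1 missed the threshold (95% interval 0.02 to 0.53, adjusted p = 0.0820), passed without siCyclin K#1 replicate 2 (0.37, adjusted p = 0.0255), and was 0.12 without siCyclin K#1 replicate 1 (adjusted p = 0.0764) and 0.15 after median-ratio rescaling (adjusted p = 0.330). The siRNAs themselves did not differ in CCND3 beyond the threshold (-0.31, adjusted p = 0.0680), but did without siCyclin K#1 replicate 1 (-0.47, adjusted p = 0.000330), after median-ratio rescaling (-0.39, adjusted p = 0.0311) and among genes with a mean of at least 1 FPKM (adjusted p = 0.0487).

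CCND2 was barely detected. For CCND2 (ENSG00000118971; chr12:4273772-4305350, plus strand) the scrambled libraries gave 0, 0 and 5 reads, the siCyclin K#1 libraries 21, 20 and 37, and no siCyclin K#2 library gave any. The siCyclin K#1 libraries were the highest and did not overlap the others, at 0.0892 to 0.157 FPKM. A count of 0 allows up to 3 reads, which is 0.0126 to 0.0132 FPKM in the siCyclin K#2 libraries, counting error only. CCND2 did not pass the filter on low values. In the fit without that filter it was higher with siCyclin K#1, by 0.98 against control (95% interval 0.59 to 1.37, adjusted p = 0.00226) and by 1.07 against siCyclin K#2 (adjusted p = 0.00249). With siCyclin K#2 the difference from control was -0.09 (adjusted p = 0.790). At these levels the fitted size depends on the added 0.1 FPKM.

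The summed D-type cyclin mRNA became smaller and changed in its make-up. CCND1, CCND2 and CCND3 together were at 86.1 ± 0.879 FPKM in the scrambled libraries, 33.5 ± 3.03 with siCyclin K#1 and 41.1 ± 0.507 with siCyclin K#2. CCND1 made up 84.2% ± 0.331 of this sum in control, 50.3% ± 4.94 with siCyclin K#1 and 50.3% ± 1.08 with siCyclin K#2 (SD, n = 3 each). The share was 83.9% to 84.6% in the scrambled libraries, 44.8% to 54.4% with siCyclin K#1 and 49.2% to 51.3% with siCyclin K#2. Across the 6 siCyclin K and 3 scrambled libraries it was lower by 33.9 percentage points (two-sided exact permutation test, p = 0.0119, the smallest this design allows). With CCND1 lower and CCND3 not, this share falls by construction, so its p is not separate evidence. For each siRNA alone the exact test cannot go below p = 0.1, which both comparisons reached. The shares with siCyclin K#2 lay within the range of those with siCyclin K#1.

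**Figure D2:**
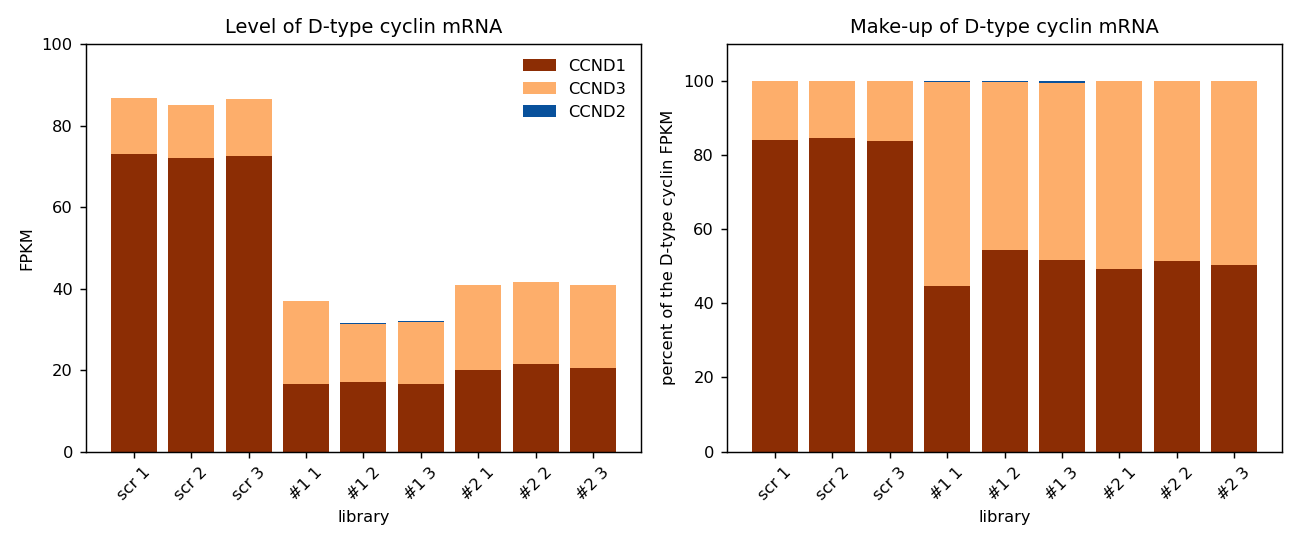
FPKM of CCND1, CCND3 and CCND2 stacked for each library (left, axis from 0) and the same as a percent of their sum (right); scr, #1 and #2 are scrambled, siCyclin K#1 and siCyclin K#2, followed by the replicate. CCND1 takes 83.9% to 84.6% of the sum in the scrambled libraries and 44.8% to 54.4% in the siCyclin K libraries.

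CDK4 and CDK6, the kinases that the D-type cyclins activate, moved apart. CDK4 (ENSG00000135446; chr12:57747727-57756013, minus strand) was at 26.5, 24.9 and 22.9 FPKM in the scrambled libraries, at 20.8, 19.8 and 21.1 with siCyclin K#1, and at 18.8, 19.7 and 19.1 with siCyclin K#2. Every siCyclin K library lay below control, and CDK4 fell by 0.26 (adjusted p = 0.00434) and by 0.36 (adjusted p = 0.00103). CDK6 (ENSG00000105810; chr7:92604921-92836594, minus strand) was at 11.5, 10.6 and 11.1 FPKM in control, at 13.3, 13.6 and 13.5 with siCyclin K#1, and at 12.1, 12.0 and 11.2 with siCyclin K#2. It rose with siCyclin K#1, by 0.28 (adjusted p = 0.00129), with all 3 libraries above control, and by 0.16 after median-ratio rescaling (adjusted p = 0.0313). With siCyclin K#2 the groups overlapped, and the difference was 0.08 (95% interval -0.03 to 0.19, adjusted p = 0.225). CDK6 differed between the siRNAs by 0.20 (adjusted p = 0.0141), which did not hold after median-ratio rescaling (0.12, adjusted p = 0.105). CDK6 made up 31.0% ± 1.54 of CDK4 and CDK6 together in control, 39.6% ± 1.09 with siCyclin K#1 and 37.97% ± 1.15 with siCyclin K#2, a quantity chosen after the values were seen.

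An siRNA guide can also pair through bases 2 to 8, its seed, with other transcripts, so the longest 3′ UTR of each gene in GENCODE 29 was searched, on the transcript strand, for the 7 bases that complete each seed. The motif GTGATAA, for siCyclin K#1, was in 9.29% of 19141 such regions and in 37.1% of those with at least 5000 bases. The motif TACAGGT, for siCyclin K#2, was in 11.5% and 45.7%. Among the 10 genes, CDK6 and CCNE2 each hold the motif of siCyclin K#1 1 time, and none holds that of siCyclin K#2. CCND1 and CCNK hold neither. Both CDK6 and CCNE2 are among the genes that differed between the siRNAs. Only the stretch of CDK6 is shown, and that of CCNE2, in a region of 1862 bases, is not. Capitals mark the motif in CDK6, at bases 4793 to 4799 of a region of 10219 bases.
CDK6: atttccaggaaGTGATAAcgtttagctaa
A match is a description and not a shown site: CDK6 was higher with siCyclin K#1, and CCNE2 was lower. Of 71 genes in the lists below, E2F6, FBXW7, MKI67, RRM1 and RRM2 hold the first motif, and CDC6, E2F5, FBXO31, GSK3B, MCM4 and TFDP2 the second.

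CDKN1B, whose product p27 holds back cyclin E with CDK2, fell with both siRNAs. CDKN1B (ENSG00000111276; chr12:12715058-12722371, plus strand) was at 39.0, 41.3 and 39.9 FPKM in the scrambled libraries, at 16.4, 17.6 and 18.3 with siCyclin K#1, and at 17.5, 15.3 and 15.9 with siCyclin K#2. No siCyclin K library reached the control range. The log2 difference was -1.20 (SE 0.060, adjusted p = 7.6e-07) and -1.30 (SE 0.060, adjusted p = 9.9e-07), and between the siRNAs 0.10 (95% interval -0.03 to 0.24, adjusted p = 0.247). The summed D-type cyclin FPKM fell too. CDKN1B per unit of this sum was 0.465 ± 0.0187 in control, 0.526 ± 0.0707 with siCyclin K#1 and 0.395 ± 0.0318 with siCyclin K#2. The siCyclin K#2 libraries, at 0.367 to 0.430, lay below the scrambled ones, at 0.449 to 0.486, and the siCyclin K#1 libraries, at 0.444 to 0.573, overlapped them. CCND1 alone lost more than CDKN1B: the ratio of CCND1 to CDKN1B was 1.81 ± 0.0675 in control, 0.961 ± 0.0530 with siCyclin K#1 and 1.28 ± 0.128 with siCyclin K#2 (exact permutation test over 6 and 3 libraries, p = 0.0119). These ratios were chosen after the values were seen.

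RB1, the substrate of the cyclin-dependent kinases in G1, was lower by a small amount. RB1 (ENSG00000139687; chr13:48303726-48599436, plus strand) was at 12.4, 12.9 and 12.7 FPKM in the scrambled libraries, at 9.74, 10.7 and 10.8 with siCyclin K#1, and at 11.3, 11.7 and 10.4 with siCyclin K#2. All 6 siCyclin K libraries lay below control. RB1 fell by 0.28 with siCyclin K#1 (adjusted p = 0.00420) and by 0.19 with siCyclin K#2 (adjusted p = 0.0391). The call for siCyclin K#2 was lost without scrambled replicate 1, 2 or 3 (adjusted p = 0.0673, 0.105 and 0.0904), without siCyclin K#1 replicate 2 (0.0509), and without siCyclin K#2 replicate 1 or 3 (0.0696 and 0.120).

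The E-type cyclins, which are themselves E2F targets, differed between the siRNAs, CCNE2 above all. CCNE2 (ENSG00000175305; chr8:94879770-94896678, minus strand) was at 4.63, 4.47 and 4.84 FPKM in the scrambled libraries, at 1.02, 1.01 and 1.22 with siCyclin K#1, and at 3.82, 3.82 and 2.82 with siCyclin K#2. The 3 groups did not overlap, with 23.3% of the control level left with siCyclin K#1 and 75.0% with siCyclin K#2. The log2 difference was -2.01 (SE 0.128, adjusted p = 3.1e-06) with siCyclin K#1, -0.42 (SE 0.128, adjusted p = 0.0332) with siCyclin K#2, and -1.59 between the siRNAs (adjusted p = 3.5e-05). The smaller change was lost without scrambled replicate 1, 2 or 3 (adjusted p = 0.0783, 0.0626 and 0.0955) and without siCyclin K#2 replicate 3 (-0.28, adjusted p = 0.0729). With both siRNAs as 1 group CCNE2 did not pass (-1.21, adjusted p = 0.0752), but did without siCyclin K#2 replicate 1 or 2 (-1.40 each, adjusted p = 0.0394 and 0.0385).

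CCNE1 changed less. CCNE1 (ENSG00000105173; chr19:29811898-29824308, plus strand) was at 7.18, 7.44 and 8.04 FPKM in the scrambled libraries, at 6.78, 6.31 and 6.27 with siCyclin K#1, and at 8.04, 7.25 and 7.88 with siCyclin K#2. The siCyclin K#1 libraries lay below the others, and the siCyclin K#2 libraries overlapped control. CCNE1 fell by 0.22 with siCyclin K#1 (adjusted p = 0.02001; by 0.34 after median-ratio rescaling), which was lost without scrambled replicate 3 (0.0701) or siCyclin K#1 replicate 2 or 3 (0.0609 and 0.0637). With siCyclin K#2 the difference was 0.03 (95% interval -0.11 to 0.18, adjusted p = 0.750). CCNE2 made up 38.1% ± 0.953 of the summed E-type cyclin FPKM in control, 14.4% ± 1.69 with siCyclin K#1 and 31.0% ± 4.21 with siCyclin K#2.

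CDK2, the partner of cyclin E, was lower with both siRNAs. CDK2 (ENSG00000123374; chr12:55966769-55972784, plus strand) was at 17.0, 10.8 and 12.6 FPKM in the scrambled libraries, at 7.05, 6.71 and 7.67 with siCyclin K#1, and at 9.14, 9.46 and 9.67 with siCyclin K#2. Control libraries varied widely, with scrambled replicate 1 the highest, and none reached down to the siCyclin K range. CDK2 fell by 0.88 (adjusted p = 0.000897) and by 0.49 (adjusted p = 0.0266), and the second call was lost without siCyclin K#2 replicate 1, 2 or 3 (adjusted p = 0.0749, 0.0647 and 0.0569). Without scrambled replicate 1 the difference with siCyclin K#2 was -0.31 (adjusted p = 0.0267). The siRNAs differed by -0.40 (adjusted p = 0.0689), which passed without scrambled replicate 1 (0.00603) or 2 (0.0284), after median-ratio rescaling (-0.47, adjusted p = 0.0433) and among genes with a mean of at least 1 FPKM (0.0493).

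**Figure D3:**
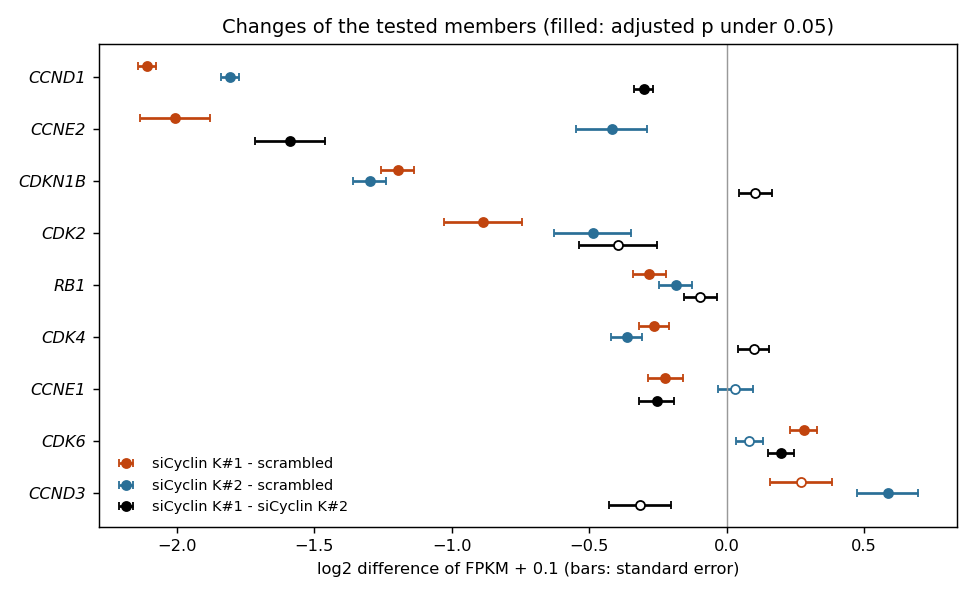
Log2 difference of FPKM + 0.1 (horizontal axis, bars the standard error) of the 9 tested genes for siCyclin K#1 and siCyclin K#2 against scrambled and for siCyclin K#1 against siCyclin K#2; filled points have an adjusted p below 0.05. CCND1 and CDKN1B lie far to the left with both siRNAs (-2.11 and -1.81, -1.20 and -1.30), whereas CCNE2 does so with siCyclin K#1 (-2.01 against -0.42).

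Compared directly, the siRNAs differed in 4 of 9 genes, where 29.4% of all tested genes differed (17.1% higher and 12.3% lower) and 44.5% of those with a mean of at least 1 FPKM, so the count is at the background for genes of this level. CCND1, CCNE1 and CCNE2 were lower with siCyclin K#1, and CDK6 was higher. Fitted among genes with a mean of at least 1 FPKM alone, 1 of 9 was higher and 5 lower, where 2929 and 2547 of 11243 genes were. After median-ratio rescaling 0 of 9 were higher and 5 lower, where 2836 and 3232 of all tested genes were. The CCNE1 difference of -0.25 (adjusted p = 0.0166) was lost without siCyclin K#1 replicate 2 or 3 (0.0548 and 0.0556) and without siCyclin K#2 replicate 1 or 3 (0.0578 and 0.0552). Gene by gene, an exact permutation test of the 6 siCyclin K against the 3 scrambled libraries, without a model of the spread, gave its smallest p, 0.0119, for CCND1, CDK2, CDK4, RB1 and CDKN1B. CCNE2 gave 0.0238, CDK6 0.0357, CCND3 0.0595, CCNE1 0.369 and CCND2 0.393, each by the same exact test. These 10 p-values are unadjusted. Every siCyclin K library lay on 1 side of all scrambled libraries for 7 of the 10 genes, as it did for 32.6% of all tested genes.

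The order of the G1 genes by level changed as well. In control, CCND1 led, followed by CDKN1B and CDK4 at 40.1 and 24.8 FPKM, with ranges that did not overlap. CCND3, CDK2 and RB1 came next, at 13.6, 13.5 and 12.7 FPKM, and their neighbours in the order overlapped. CDK6 (11.1), CCNE1 (7.55), CCNE2 (4.65) and CCND2 followed, each separate from the next. Under siCyclin K#1, CDK4 led at 20.6 FPKM, and CDKN1B, CCND1 and CCND3 (17.5, 16.7 and 16.6) overlapped. The range of CCND3 there, 14.29 to 20.3, also overlapped that of CDK4, 19.75 to 21.08. With siCyclin K#2, CCND1 and CCND3 (20.7 and 20.4) overlapped at the top, above CDK4 (19.2) and CDKN1B (16.2). CDK6, RB1, CDK2, CCNE1, CCNE2 and CCND2 followed in this order in both, and the ranges overlapped for CDK2 with CCNE1 under siCyclin K#1 and for CDK6 with RB1 under siCyclin K#2.

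The other genes of the pathway were examined in lists, each described by its counts beside the median of all tested genes, 0.10 with siCyclin K#1 and 0.01 with siCyclin K#2. The counts of called genes are to be read against the 64.3% and 53.5% called among genes with a mean of at least 1 FPKM. After median-ratio rescaling those medians were -0.002 and -0.02, so the choice of scaling moved the median with siCyclin K#1 by about 0.10. Of all tested genes 5635 rose and 3800 fell with siCyclin K#1, and 4634 and 4686 after that rescaling. For siCyclin K#1 against siCyclin K#2 the split was 3600 and 2591, and 2836 and 3232 after rescaling.

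Of 6 other CDK inhibitors, 4 were tested, with a list median of 0.38 with siCyclin K#1 and -0.30 with siCyclin K#2. CDKN1A, which encodes p21, an inhibitor of cyclin E with CDK2, moved in opposite directions. It was at 33.4, 30.7 and 33.2 FPKM in control, rose to 43.0, 48.6 and 44.0 with siCyclin K#1 and fell to 18.7, 18.1 and 16.1 with siCyclin K#2. The 3 groups did not overlap, and the siRNAs differed by 1.35 (adjusted p = 2.9e-06). CDKN2C, an inhibitor of CDK4 and CDK6, rose with both siRNAs, from 7.17 FPKM to 10.9 and 13.3 (adjusted p = 6.7e-05 and 1.1e-05). CDKN1C and CDKN2D did not pass against control, though CDKN1C passed with siCyclin K#2 after median-ratio rescaling (adjusted p = 0.0469) and without scrambled replicate 1 (0.0451). CDKN2A and CDKN2B, further inhibitors of CDK4 and CDK6, stayed at or below 0.03505 FPKM in every library and were not tested. With siCyclin K#2 the list had 1 gene higher and 1 lower, and 1 and 2 after median-ratio rescaling. Its median with siCyclin K#2 turned to 0.21 among genes with a mean of at least 1 FPKM, where 3 of these genes were tested.

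The pocket proteins, E2F and DP factors, which read out the state of RB1, had genes called in both directions. With siCyclin K#1, 5 of 12 were higher and 3 lower (median 0.12), so that 66.7% were called, near the background of 64.3%. The counts for siCyclin K#2 were 6 higher and 3 lower (median 0.34), or 75.0% beside 53.5%; of these, 5 were higher and 3 lower with both, in comparisons that share the control. After median-ratio rescaling the split with siCyclin K#1 was 4 and 4, and after quantile normalization the split with siCyclin K#2 was 5 and 5. E2F1, an activator of S-phase genes, was at 9.48 FPKM in control, 11.3 with siCyclin K#1 and 19.1 with siCyclin K#2 (adjusted p = 0.0146 and 7.5e-06); the first call was lost after median-ratio rescaling (0.191) or quantile normalization (0.0508) and without scrambled replicate 2 (0.0522) or siCyclin K#1 replicate 1 (0.0517). The other activators did not all move with E2F1. E2F3 fell from 9.32 to 7.94 and 5.97 FPKM (adjusted p = 0.00999 and 4.2e-05). E2F2 was at 3.67 FPKM in control, 3.92 with siCyclin K#1 (adjusted p = 0.382) and 5.00 with siCyclin K#2 (adjusted p = 0.00290). RBL2, which encodes the RB1 relative p130, rose from 6.46 to 13.2 and 8.49 FPKM (adjusted p = 4.8e-07 and 0.000238), and RBL1, which encodes p107, from 4.93 to 6.45 and 7.71. E2F5 and E2F6, which mostly repress, fell from 3.83 to 2.17 and 1.79 FPKM and from 15.3 to 8.64 and 11.8 FPKM. E2F8, another repressor, rose from 1.81 to 2.85 and 3.20 FPKM.

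Of the genes that activate the kinases, CDC25A, the phosphatase that removes an inhibitory phosphate from CDK2, fell from 10.4 to 6.48 FPKM with siCyclin K#1 (adjusted p = 9.2e-06) and was higher, at 11.8, with siCyclin K#2 (adjusted p = 0.0236). That second call was lost after median-ratio rescaling (0.0851) or quantile normalization (0.172), without the trend (0.0597), and without scrambled replicate 2 or 3 (0.0787 and 0.0516) or siCyclin K#2 replicate 2 or 3 (0.0641 and 0.0816). The 3 groups did not overlap, and the siRNAs differed by -0.85 (adjusted p = 6.9e-06). CDK7 and CCNH are partners in the CDK-activating kinase. CDK7 was at 10.8 FPKM in control, 13.5 with siCyclin K#1 (adjusted p = 0.0233) and 15.2 with siCyclin K#2 (adjusted p = 0.00353). The first call was lost after median-ratio rescaling (0.144), and without scrambled replicate 2 or 3 (0.0641 and 0.0654) or siCyclin K#1 replicate 2 or 3 (0.0682 and 0.0702). CCNH was at 7.20 FPKM in control, 5.89 with siCyclin K#1 (adjusted p = 0.00209) and 6.40 with siCyclin K#2 (adjusted p = 0.0388). The latter was lost without the trend (0.0729), without scrambled replicate 1 or 3 (0.0892 and 0.119), without siCyclin K#1 replicate 1 (0.0513), and without siCyclin K#2 replicate 1, 2 or 3 (0.0978, 0.102 and 0.0544). With medians of -0.29 and 0.18, the list had 1 gene higher and 2 lower with siCyclin K#1 and 2 higher and 1 lower with siCyclin K#2, and after median-ratio rescaling 0 and 2, and 1 and 1. MNAT1 was not analysed here.

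Genes that govern the breakdown of cyclins and p27 had genes called in both directions: with siCyclin K#1, 6 of 9 were higher and 2 lower (median 0.23; 88.9% called), and with siCyclin K#2, 4 were higher and 1 lower (median 0.14; 55.6% called, near the background). After median-ratio rescaling these splits were 4 and 2, and 3 and 1. GSK3B, a kinase that marks cyclin D1 for export and degradation, was at 10.1, 10.4 and 10.6 FPKM in control, at 20.3, 20.5 and 20.8 with siCyclin K#1, and at 15.9, 15.4 and 15.6 with siCyclin K#2. The 3 groups did not overlap (adjusted p = 1.2e-07 and 3.8e-06 against control). AMBRA1, a substrate receptor for D-type cyclins, rose from 3.66 to 7.51 and 4.64 FPKM, and FBXW7, the receptor for cyclin E, from 1.18 to 1.42 FPKM in the control libraries to means of 3.83 and 1.62 FPKM (adjusted p = 1.7e-06 and 0.0274). The smaller FBXW7 change was lost after median-ratio rescaling or quantile normalization (0.0501 and 0.0685), and without scrambled replicate 1 or 2 (0.0825 and 0.0609) or siCyclin K#2 replicate 1 or 2 (0.0753 and 0.0817). The receptor of p27, SKP2, was at 8.78 FPKM in control and 8.27 with siCyclin K#1 (adjusted p = 0.374), and fell to 6.32 with siCyclin K#2 (adjusted p = 0.000917). Its cofactor CKS1B fell from 57.3 to 32.6 FPKM with siCyclin K#1 (adjusted p = 1.0e-05) and was at 60.4 with siCyclin K#2 (adjusted p = 0.400). CUL1, the scaffold of the SKP2 and FBXW7 ligases, rose from 25.0 to 29.3 and 32.4 FPKM (adjusted p = 0.0131 and 0.00135), the former not after median-ratio rescaling (0.234). SKP1 was not analysed here.

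Genes of S phase that lie under E2F separated the siRNAs. With siCyclin K#1, 12 of 18 were lower and 2 higher (median -0.36), and with siCyclin K#2, 4 were lower and 9 higher (median 0.13). Tested directly, siCyclin K#1 gave the lower level in 15 of 18 and the higher level in none, where 12.3% of all tested genes were lower and 44.5% of those with a mean of at least 1 FPKM differed in either direction. CDC6, which loads the replicative helicase, was at 30.5 FPKM in control, 15.8 with siCyclin K#1 and 25.6 with siCyclin K#2 (adjusted p = 1.4e-06 and 0.00565). RRM1 and RRM2, the subunits of ribonucleotide reductase, fell from 45.6 to 30.4 and from 23.1 to 11.2 FPKM with siCyclin K#1 and rose to 58.2 and 32.2 FPKM with siCyclin K#2; RRM2 shares its row with 2 other genes, and its rise (adjusted p = 0.0258) was lost without scrambled replicate 1, 2 or 3 (0.0614, 0.0629 and 0.0694) or siCyclin K#2 replicate 1 or 2 (0.0881 and 0.0846). MCM5, named after its values were seen, was the remaining gene with opposite calls, and its lower call with siCyclin K#1 was lost without scrambled replicate 3 (0.0585) or siCyclin K#1 replicate 2 (0.0572). TK1 fell from 91.5 to 54.3 FPKM with siCyclin K#1 (adjusted p = 2.9e-06). MCM2, CDC45 and ORC1 rose with siCyclin K#2 (to 37.3, 14.3 and 15.3 FPKM from 25.3, 8.48 and 11.8). With siCyclin K#1, ORC1 did not pass (-0.11, adjusted p = 0.0978). It was called lower there after median-ratio rescaling (-0.23, adjusted p = 0.00613) and quantile normalization (-0.15, adjusted p = 0.0365).

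The G2 and mitosis genes showed a like split. With siCyclin K#1, 7 of 10 were lower and 1 higher (median -0.42), and with siCyclin K#2, 4 were lower and 5 higher (median 0.14); after quantile normalization the latter was 4 and 3. In the direct comparison 9 of 10 were lower with siCyclin K#1, beside the same 12.3% of all tested genes lower and 44.5% differing at a mean of at least 1 FPKM. CDC20, an activator of the anaphase-promoting complex, fell with both siRNAs, from 83.5 to 27.5 and 49.0 FPKM (adjusted p = 1.2e-08 and 7.3e-07), and CCNB1, the mitotic cyclin, from 99.0 to 53.6 and 76.6 FPKM. AURKB fell from 24.8 to 13.2 and 21.1 FPKM. CCNB2 rose, from 23.4 to 31.5 and 44.5 FPKM. MKI67, the proliferation marker, was at 56.6 FPKM in control, fell to 47.8 with siCyclin K#1 and rose to 73.8 with siCyclin K#2 (adjusted p = 0.000192 and 2.1e-05). With siCyclin K#1 it fell by 0.25, and fell by 0.16 after quantile normalization. PLK1 fell from 29.5 to 19.6 FPKM with siCyclin K#1 (adjusted p = 4.4e-06) and was at 32.1 with siCyclin K#2 (0.12, adjusted p = 0.0440), a call lost without a filter (0.0604), after median-ratio rescaling (0.214) or quantile normalization (0.158) and without the trend (0.149). It was also lost without scrambled replicate 1 or 3 (0.109 and 0.135), siCyclin K#1 replicate 1 or 3 (0.0578 and 0.0563), or siCyclin K#2 replicate 1 or 3 (0.134 and 0.0929). BUB1, named after its values were seen, was the remaining gene with opposite calls, and its higher call with siCyclin K#2 was lost after quantile normalization (0.0503), without scrambled replicate 1 or 2 (0.0530 and 0.0523) and without siCyclin K#2 replicate 1 (0.0520).

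**Figure D4:**
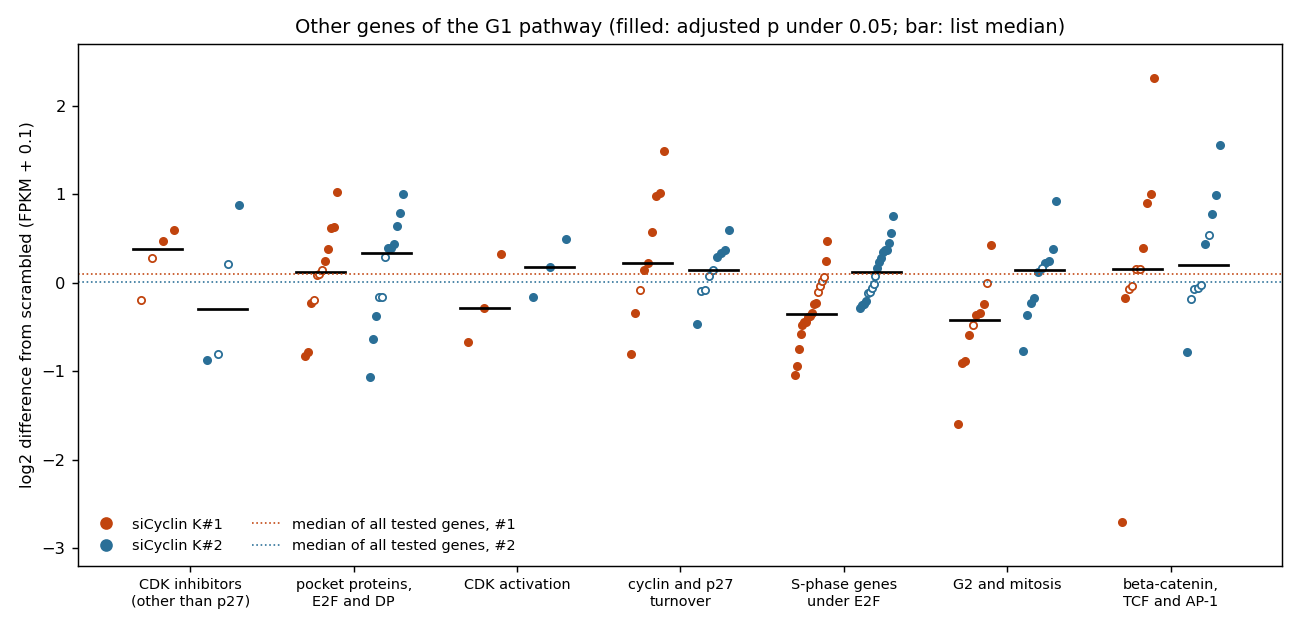
Log2 difference from scrambled of every tested gene in the 7 lists (vertical axis, FPKM + 0.1), for siCyclin K#1 and siCyclin K#2; filled points have an adjusted p below 0.05, bars are list medians, and dotted lines are the medians of all tested genes. The medians of the S-phase and mitosis lists lie below 0 with siCyclin K#1 (-0.36 and -0.42) and above 0 with siCyclin K#2 (0.13 and 0.14).

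Factors that act on the CCND1 promoter through TCF and AP-1 sites were examined because the study linked CCND1 to β-catenin. That link concerned the protein: the study reported less β-catenin protein after Cyclin K depletion and no effect on its mRNA. Only RNA was measured in these libraries. CTNNB1, the gene for β-catenin, was at 23.7 FPKM in control, 23.2 with siCyclin K#1 and 22.7 with siCyclin K#2, and did not pass (95% intervals -0.14 to 0.07 and -0.17 to 0.04); after median-ratio rescaling it was lower with siCyclin K#1 (-0.16, adjusted p = 0.0247). Of 10 tested genes of this list, 4 were higher and 2 lower with siCyclin K#1 (median 0.16), and 4 higher and 1 lower with siCyclin K#2 (median 0.21), counts near the background; after median-ratio rescaling the splits were 3 and 4, and 4 and 2. FOSL1, an AP-1 factor, was at 101, 119 and 125 FPKM in control, at 18.5, 16.5 and 17.4 with siCyclin K#1, and at 59.4, 72.5 and 68.5 with siCyclin K#2. The 3 groups did not overlap (adjusted p = 1.1e-07 and 0.000248 against control, 2.4e-06 between the siRNAs). TCF7L1, mostly a repressor, rose from 0.386 to 2.31 and 1.33 FPKM. TCF7L2, the most abundant TCF gene of the list, was at 6.90 FPKM in control, 6.09 with siCyclin K#1 and 6.07 with siCyclin K#2. Every siCyclin K library lay below control for TCF7L2, with values on both sides of the threshold (adjusted p = 0.0472 and 0.0509). JUN and JUND, partners of FOSL1, rose with both siRNAs, JUN from 5.84 to 7.68 and 11.8 FPKM and JUND from 7.70 to 14.8 and 13.4 FPKM. JUN with siCyclin K#1 lost its call after median-ratio rescaling (0.0540), and JUND with siCyclin K#2 without scrambled replicate 1 (0.0502) or siCyclin K#2 replicate 2 (0.0504). FOS was at 0.505 FPKM in control, rose to 1.08 with siCyclin K#1 (adjusted p = 0.00643) and was at 0.760 with siCyclin K#2 (adjusted p = 0.101, and 0.0389 without scrambled replicate 1). LEF1 was at or near 0 and was not tested.

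Around CCND1, ORAOV1 (chr11:69653076-69675416, minus strand) was the only tested gene within 250 kb. It was at 1.64, 1.88 and 1.64 FPKM in control, at 1.303, 1.04 and 0.941 with siCyclin K#1, and at 1.73, 1.39 and 1.07 with siCyclin K#2. The siCyclin K#1 libraries were below control (-0.61, adjusted p = 0.0213), and the siCyclin K#2 libraries overlapped it (-0.30, adjusted p = 0.242). ORAOV1 overlaps the 3′ end of CCND1, so its values may include reads of CCND1, which was not tested. FGF19 and 3 long intergenic RNAs in this window were below the filter.

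Genes with a pattern close to CCND1 were ranked, over the 9 libraries and 11234 genes with a mean of at least 1 FPKM, by the root mean square difference of the log2 level from its scrambled mean. The closest was RPRD1A, at 11.3, 2.46 and 3.48 FPKM in the 3 groups, with a difference of 0.132. MILR1 followed with 0.201, NABP1 (on a row with a small RNA) with 0.219, TLCD1 with 0.221 and RARRES3 with 0.242. These genes were chosen for the likeness, so it carries no test.

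**Figure D5:**
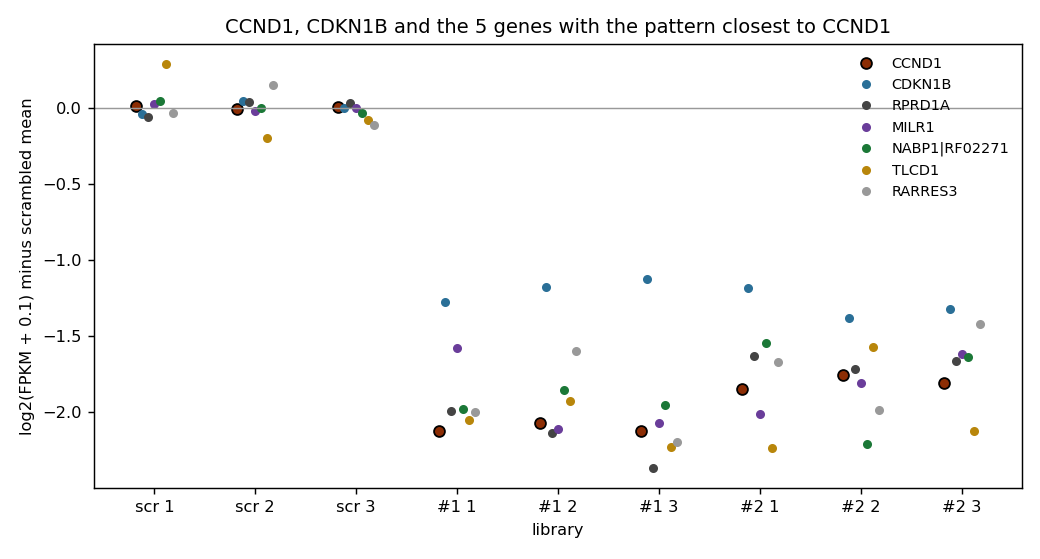
Log2(FPKM + 0.1) minus the mean of the scrambled libraries (vertical axis) in each of the 9 libraries for CCND1, CDKN1B and the 5 genes closest to CCND1. All 6 siCyclin K libraries of each gene lie below 0, and CDKN1B, with means of -1.20 and -1.30, lies above CCND1, with -2.11 and -1.81.

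Markers of the cell line and of other cell types were examined beside these results. KRT8 had a mean of 55.3 FPKM in control, 94.9 with siCyclin K#1 and 97.4 with siCyclin K#2, and KRT18 of 83.2, 74.1 and 90.2. The summed level of 6 genes high in A549 was 1087 to 1129 FPKM in the scrambled libraries and 1482 to 1668 in the 6 siCyclin K libraries. This sum moved with both siRNAs, and its part in the results was not tested. Its genes did not move alike. In control, siCyclin K#1 and siCyclin K#2, mean FPKM was 549.9, 826.2 and 920.9 for ALDH1A1 and 60.07, 282.4 and 165.0 for ALDH3A1. For AKR1C2 it was 81.01, 219.1 and 188.6, and for AKR1C3 69.95, 106.2 and 81.62. AKR1B10, on a row with AKR1B15, went down (326.7, 142.0 and 186.8), and AKR1C1 was at 23.58, 21.7 and 30.58. EPCAM and KRT19, further epithelial markers, stayed at or below 0.279 FPKM. CDH1, also an epithelial marker, had a mean of 1.64 FPKM in control, 3.88 with siCyclin K#1 and 1.71 with siCyclin K#2. KRT7 was not analysed here. Of 5 fibroblast markers all were found, and their sum was 2.29 to 2.71 FPKM in the scrambled libraries, 15.5 to 17.4 with siCyclin K#1 and 3.55 to 3.74 with siCyclin K#2. COL1A1 was the most abundant of them (14.0 FPKM on average with siCyclin K#1), and LUM was at 2.28 FPKM there, while COL1A2 stayed at or below 0.0111 FPKM and DCN at or below 0.0919 FPKM in every library. PDGFRB had means of 0.101, 0.129 and 0.0972 FPKM in control, siCyclin K#1 and siCyclin K#2. The fibroblast sum rose with both siRNAs without overlap with control, and more with siCyclin K#1. The fall of CCNE2 was also larger with siCyclin K#1, and the S-phase and mitosis lists had their lower medians there. The part of this sum in those results was not tested. The sum of 3 leukocyte markers was 0.577 to 1.03 FPKM, mostly CD14, with PTPRC at or below 0.00685. The sum of 4 endothelial markers was 0.0536 to 0.275 FPKM.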

How the data were processed

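RNA was sequenced from 9 A549 libraries, 3 per group, grouped by sample title. The values are FPKM, which the authors computed with StringTie (1.3.3b per the labels) and deposited as 1 list of features a library. The aligner and annotation release are not given in the sources used here. Each list held 56252 features. Where several rows named the same gene they were added up (47 genes), and 25125 features that name no reference gene were dropped. Gene positions, exon lengths and 3′ UTRs came from GENCODE 29 on GRCh38. Depth was recovered from the steps between low values, each step being 1 read. Replicates were not duplicates: the chi-square of recovered reads per degree of freedom was 10.05 to 12.91.

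Genes with at least 0.1 FPKM in at least 3 libraries were fitted as log2(FPKM + 0.1) in limma 3.58.1 under R 4.3.3, using lmFit and eBayes with trend, and p-values were adjusted over 21048 genes by Benjamini-Hochberg. The added 0.1 understates changes of low genes. The 3 groups shared an estimate of the spread, and both siRNAs together were fitted as 2 groups. Intervals are 95% intervals of that fit. Shares, ratios and single genes had two-sided exact permutation tests on the absolute difference of means with scipy 1.17.1. The fit was tested on simulated data.

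The members, lists and tests were chosen with earlier results of these data known. Named were all members and CCNK; from each list, in each comparison with control, up to 4 called genes with the largest change; tested genes within 250 kb of CCND1; and the 5 genes closest to CCND1 in pattern. Genes named outside this rule are those with opposite calls or with a role beside the members. The marker lists covered epithelial cells, genes high in A549 (summed level 1087 to 1668 FPKM), type 2 alveolar cells (0.130 to 0.469 FPKM), leukocytes, endothelium and fibroblasts. Alternatives were other pseudocounts, filters and scalings, eBayes without trend, a replicate block, another grouping, the rule of the study, and leaving out each library.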

Additional observations from a re-analysis of the deposited data

Results flagged for a closer look

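The effect of silencing differed between the siRNAs, tested directly in the fit across all genes, in 4 of the 9 genes tested, where 29.4% of all tested genes differed and 44.5% of those with a mean of at least 1 FPKM, so the count is at the background. Fitted among genes with a mean of at least 1 FPKM alone, 1 of 9 was higher with siCyclin K#1 and 5 lower, where 2929 and 2547 of 11243 genes were. After median-ratio rescaling 0 of 9 were higher and 5 lower. Values below are siCyclin K#1 minus siCyclin K#2 on the log2 scale, in the main fit unless another setting is named. For CCND1 the difference was -0.30 (adjusted p = 0.000236). For CCNE2 it was -1.59 (adjusted p = 3.5e-05). For CCNE1 it was -0.25 (adjusted p = 0.0166), which was lost without siCyclin K#1 replicate 2 or 3 (0.0548 and 0.0556) and without siCyclin K#2 replicate 1 or 3 (0.0578 and 0.0552). CDK6, the only one of the 4 higher with siCyclin K#1, differed by 0.20 (adjusted p = 0.0141), and by 0.12 after median-ratio rescaling (adjusted p = 0.105).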

How the results depend on the processing

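The 9 tested genes gave 621 values under other settings, of which 561 kept their direction and side of the threshold, among them 69 of 69 for CCND1. Those reversed were CCNE1 with siCyclin K#2, at -0.0162 after median-ratio rescaling, -0.0460 after quantile normalization and -0.00334 without scrambled replicate 1 (range -0.00334 to 0.0775 without each library), none of which was called. Under the rule of the study, 983, 409, 322 and 483 genes were called for siCyclin K#1, siCyclin K#2, the siRNAs against each other and both together, of which 2, 1, 1 and 1 were members. Averaging the siRNAs in the 3-group fit called 9076 genes for both together, where the fit of 2 groups called 6015. Without each library in turn, members called ranged from 7 to 8, 4 to 7, 3 to 5 and 3 to 6 in these comparisons, genes called from 8584 to 9325, 6472 to 7250, 5162 to 6006 and 4248 to 6058, and the CCND1 share difference from -34.74 to -32.83 percentage points; the exact tests with an unadjusted p under 0.05 numbered 6 to 8 of 10. RB1 with siCyclin K#2 also lost its call without a filter (adjusted p = 0.0527) and without the trend (0.0861). Replicate numbers did not pair the libraries (correlation of deviations -0.0711 to 0.0379, and a library's best match in another group carried its own number in 5 of 18 cases). With the replicate block 9062, 6947, 5680 and 4773 genes and 8, 5, 4 and 4 members were called, and CCNE2 and RB1 with siCyclin K#2 had adjusted p = 0.0719 and 0.0541; CDK7 with siCyclin K#1, and FBXW7 and PLK1 with siCyclin K#2, lost their calls too (0.0510, 0.0566 and 0.0801). The cause of these shifts was not tested. Without a filter on low values, 10 members were tested and CCND2 was added to those called for siCyclin K#1 and for the siRNAs against each other.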
